A study of Bos taurus with 32 samples.

Results

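Cytosolic ribosomal protein genes were followed in the liver of 12 Ayrshire dairy cows around calving. A gene was taken as a member when the array annotation gave a probe set a symbol beginning RPL or RPS and a digit, or the symbol RPSA, RPLP0, RPLP1 or RPLP2. S6 kinase genes, RPS4Y genes and symbols ending in L1 or L3 were left out, and each gene was represented by its brightest probe set, by mean over the arrays. The rule found 65 of the 9155 genes that the annotation names on the array. By role these were 2 proteins of the P stalk, 37 other proteins of the large subunit, 23 proteins of the small subunit, 2 paralogues (RPL3L and RPS27L) and RPS19BP1, which binds RPS19 but is no structural ribosomal protein. Read to the letter, the rule also dropped RPL3, a core protein of the large subunit, among 12 symbols left out, and it kept RPL15P, annotated as a pseudogene, whose probe set may also bind RPL15 transcripts. RPLP1 was not analysed here.

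Cows received a high-energy (HIGH) or a controlled-energy (CON) diet over the last weeks before their predicted calving, with 6 cows on each diet. Biopsies of liver were taken 8 days ahead of the predicted date (-8 d) and 1 and 9 days past the true one (1 d, 9 d). At -8 d there were 5 HIGH and 5 CON arrays, at 1 d 6 HIGH and 4 CON arrays and at 9 d 6 of each diet, 32 in all, and 8 cows (5 HIGH and 3 CON) had arrays on all 3 days. Values are log2 values after robust multi-array averaging (RMA), so a difference of 1 is a doubling of the normalised signal relative to the bulk of probe sets on the same arrays.

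Cytosolic ribosomal proteins form the large and the small subunit of the ribosome together with ribosomal RNA. Their messenger RNAs carry a terminal oligopyrimidine (TOP) tract at the 5′ end, through which their translation is controlled together by mTOR signalling and LARP1. They are made in near equal numbers in a growing cell, and the liver needs many ribosomes for the plasma proteins that it secretes.

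The probe sets were bright. Of the 65 members, 59 had a mean above 12, as had 504 of the 24016 probe sets tested (2.10%), whose overall median was 5.89. The brightest were RPL37A (mean 14.09) and RPL21 (13.88), both of the large subunit, and RPS3A (13.92) of the small subunit. At the other end, RPL37 (3.23), RPS19 (3.90) and the paralogue RPL3L (4.87), which in mammals is known mainly from muscle, lay below 6. Signal of different probe sets depends on their probes, so these levels rank arrays' signal and not amounts of RNA. The remaining 3 members lay between these groups, RPS19BP1 at 8.95, RPS28 at 10.98 and RPS27L at 11.43. Within a diet and day the bright members varied little: their SD had a median of 0.09 (0.05 to 0.16), against 0.13 for the 443 other probe sets with a mean above 12.

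Arrays came from liver as labelled. All 8 hepatocyte markers examined were measured, and their mean per array was 13.12 (the median) on the -8 d arrays, 13.94 on those of 1 d and 13.58 on those of 9 d. At 1 d against -8 d 3 of the 8 rose, HP by far the most, and 4 fell. Deviations from the group means were shared within cows over the days (28 pairs of arrays, mean Pearson r 0.32 over all probe sets), so the limma fit had cow as a random block. Calls are at a Benjamini-Hochberg adjusted p under 0.05 over all 24016 probe sets.

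The comparison of 1 d with -8 d, averaged over the diets, asked how the members changed over calving. Of the 65 members 13 rose and 3 fell, and the changes were small, from -0.31 to 0.30 on the log2 scale. The rises were in the P stalk (RPLP2 and RPLP0), in RPL15P, RPL7 and RPL12 of the large subunit, in RPS18, RPSA, RPS21, RPS15, RPS15A, RPS10 and RPS29 of the small subunit, and in RPS19BP1. The falls were in RPS27L, RPS6 and RPS27. By limma 20% of the members rose, 4.62% fell and 24.6% changed either way. Of all probe sets 11.5% rose, 11.6% fell and 23% changed either way, so the share of members that changed was near that of the whole array. Among the 443 other bright probe sets 53% changed, 21.9% upward and 31.15% downward.

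RPLP2, an acidic protein of the P stalk that recruits elongation factors to the ribosome, had the largest rise. At -8 d it read 12.82, 12.84, 12.88, 12.92 and 13.09 in HIGH cows and 12.94, 12.95, 13.01, 13.07 and 13.09 in CON cows. At 1 d the 6 HIGH arrays had 13.20 as the lowest, 13.27 as the median and 13.40 as the highest value, and the CON arrays read 13.15, 13.21, 13.23 and 13.29. Every 1 d array lay above every -8 d array, in both diets. The log2 fold change was 0.30 (SE 0.05, limma adjusted p = 0.000125), and 8 of 8 cows with both days were higher at 1 d. RPLP0, the scaffold of the stalk, rose less (0.11, SE 0.04, limma adjusted p = 0.0423) and did not pass when any 1 of 15 arrays was left out. At 1 d it read 12.89 to 13.16 in HIGH cows and 12.81 to 12.96 in CON cows, against 12.79 to 12.93 in either diet at -8 d. Another RPLP0 probe set, nearly as bright (mean 12.89, against 12.92), did not pass (0.08, SE 0.05, limma adjusted p = 0.265). Nor did a dim one (mean 5.82, log2 fold change -0.03).

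RPS18, a protein of the head of the small subunit, read 13.52 to 13.84 (median 13.68) in HIGH cows and 13.49, 13.52, 13.58 and 13.76 in CON cows at 1 d. At -8 d it read 13.31, 13.32, 13.35, 13.49 and 13.55 in HIGH cows and 13.40, 13.40, 13.45, 13.48 and 13.48 in CON cows. The days overlapped only between 13.49 and 13.55. The rise was 0.21 (SE 0.05, limma adjusted p = 0.00329), seen in 8 of 8 cows.

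RPSA, which is also known as the laminin receptor precursor, read 12.69 to 13.02 (median 12.89) in HIGH cows and 12.75, 12.77, 12.81 and 12.90 in CON cows at 1 d. At -8 d the HIGH arrays read 12.47, 12.56, 12.57, 12.65 and 12.73 and the CON arrays 12.55, 12.64, 12.71, 12.73 and 12.75. The ranges of the days met between 12.69 and 12.75. The rise was 0.20 (SE 0.05, limma adjusted p = 0.00665), with 7 cows higher and 0 lower. RPS21, which contacts RPSA in the small subunit, rose by 0.16 (SE 0.05, limma adjusted p = 0.0174), higher in 6 of 8 cows. At -8 d it read 12.60 to 12.74 in HIGH cows and 12.64 to 12.80 in CON cows. At 1 d it read 12.80 to 13.16 in HIGH cows and 12.70, 12.75, 12.75 and 12.90 in CON cows. Its CON arrays overlapped between the days, and its HIGH arrays did not. No difference between the diets in this change passed.

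In the large subunit RPL15P rose by 0.20 (SE 0.04, limma adjusted p = 0.000762), RPL7 by 0.17 (adjusted p = 0.00389; -0.010 with the mean over its probe sets) and RPL12, at the base of the stalk, by 0.15 (adjusted p = 0.018). RPL7 read 13.53 to 13.96 at 1 d, against 13.44 to 13.64 at -8 d, so its days overlapped. The other RPL7 probe set was dim (mean 3.73) and did not pass (log2 fold change -0.20). RPS19BP1, known as a regulator of the deacetylase SIRT1, rose by 0.24 (SE 0.07, adjusted p = 0.0160), higher in 6 of 8 cows. The other 4 rises, in RPS15, RPS15A, RPS10 and RPS29, were of 0.09 to 0.13. RPS15A read 13.61 to 13.76 in HIGH cows and 13.47 to 13.64 in CON cows at 1 d. At -8 d it read 13.44 to 13.50 in HIGH cows and 13.43 to 13.53 in CON cows. With the mean over its probe sets, of which the other was dimmer (mean 7.32), RPS15A changed by 0.03 and did not pass. RPS29 was higher in 8 of 8 cows and RPS10 in 6 of 8. The calls of RPS29 and RPS10 were each lost when any 1 of 5 arrays was left out, and those of RPS15 and RPS21 when 1 certain array was left out.

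RPS27L, a paralogue of RPS27 known as a target of p53 in human cells, fell most. At 1 d it read 11.19 to 11.70 (median 11.245) in HIGH cows and 11.07, 11.15, 11.23 and 11.28 in CON cows. At -8 d it read 11.38, 11.45, 11.48, 11.72 and 12.04 in HIGH cows and 11.20, 11.40, 11.51, 11.66 and 11.80 in CON cows. The days overlapped, with 7 of 8 cows lower at 1 d (-0.31, SE 0.08, limma adjusted p = 0.00425). RPS6, the small-subunit protein phosphorylated by S6 kinases, had 13.26 as the lowest, 13.415 as the median and 13.58 as the highest value at 1 d, against 13.44, 13.505 and 13.57 at -8 d. Its fall of 0.11 (a log2 fold change of -0.11, SE 0.04, limma adjusted p = 0.0465) did not pass when any 1 of 23 arrays was left out. RPL5 and RPL11, which can bind MDM2 when they are free of ribosomes, did not pass (log2 fold changes -0.06 and 0.07).

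**Figure D1:**
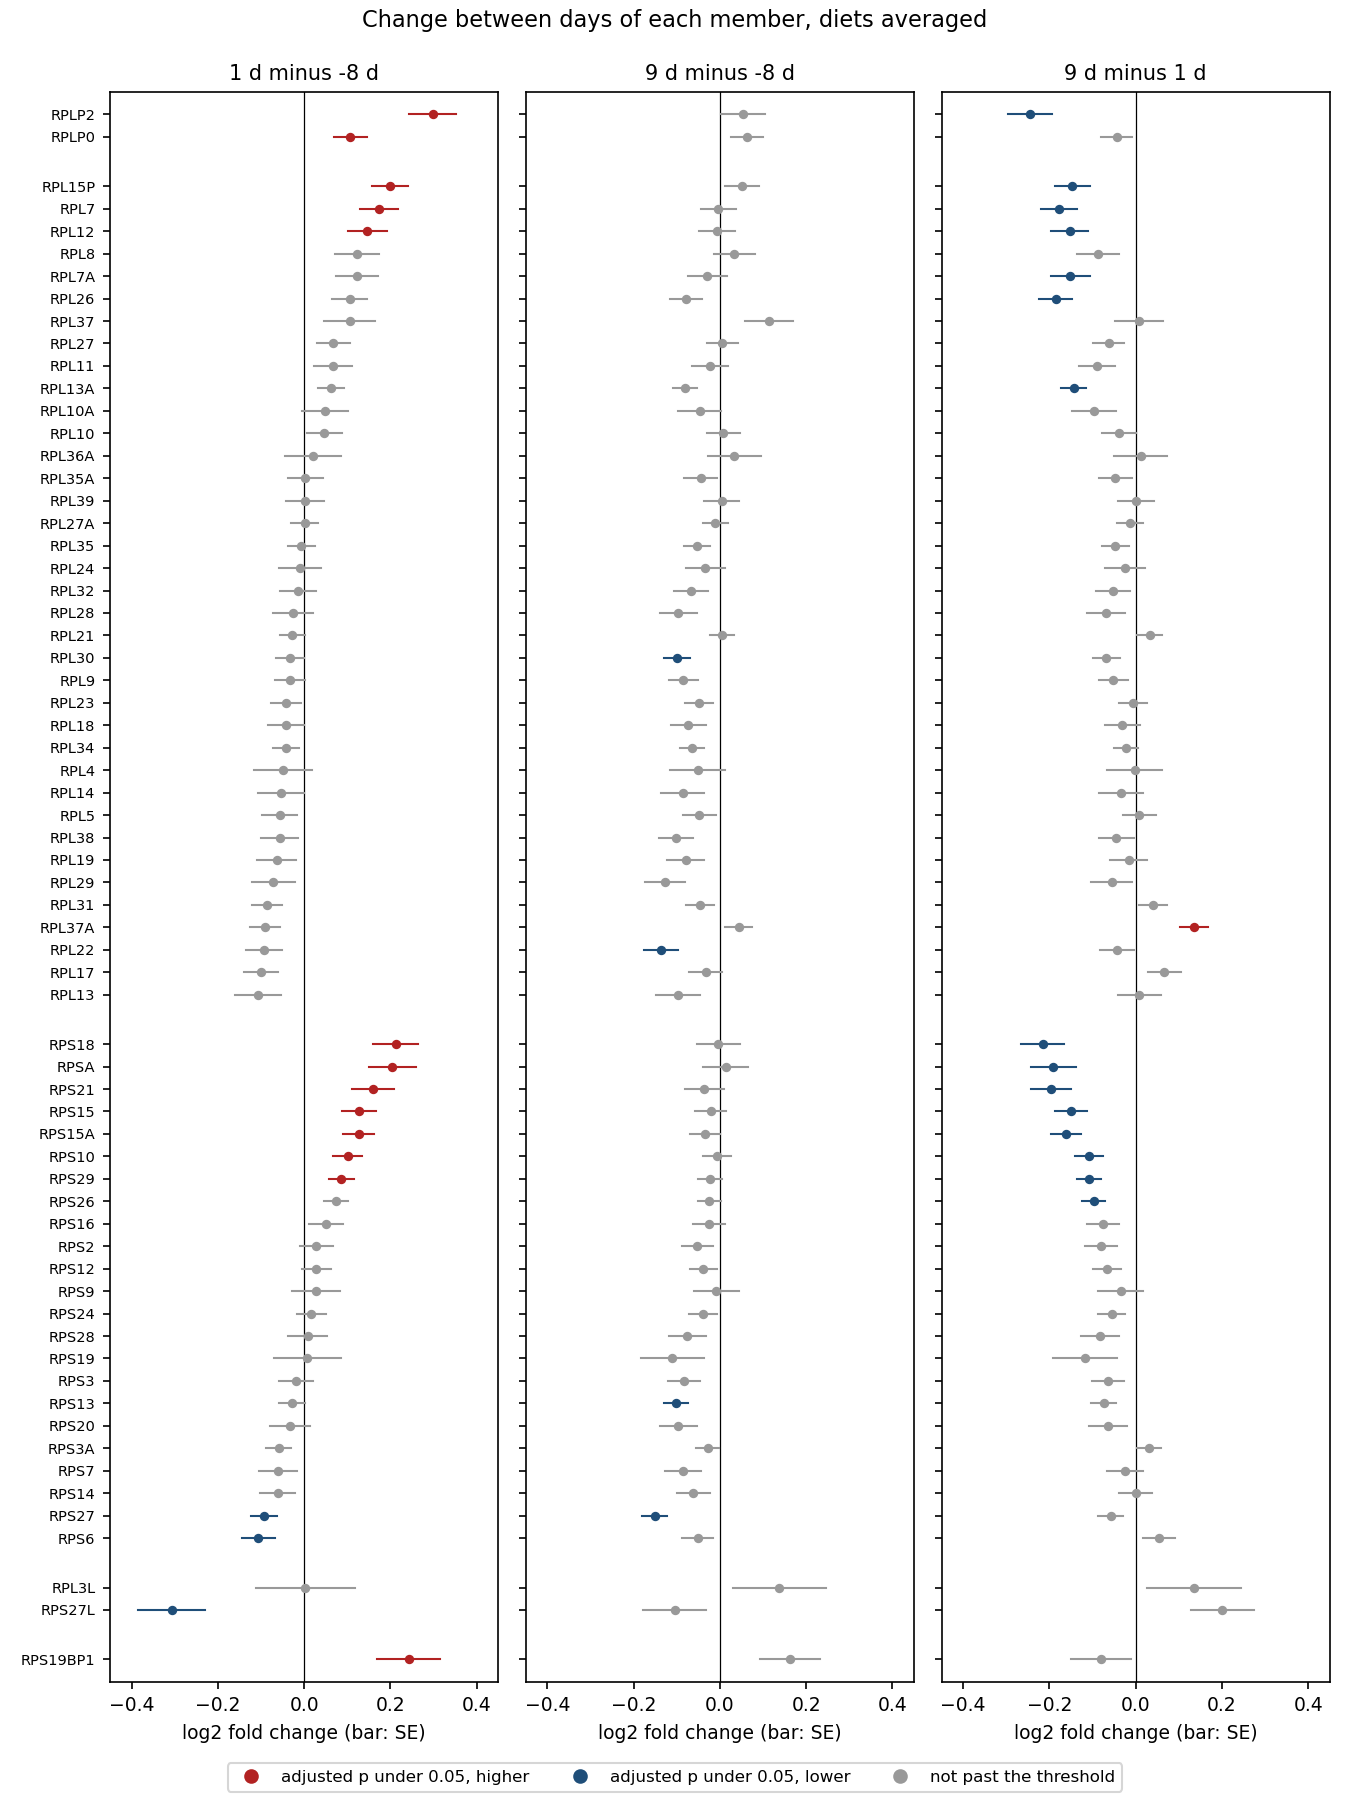
Log2 fold change (horizontal axis, points) with its standard error (bars) of each of the 65 members between days, diets averaged, in rows grouped as P stalk, large subunit, small subunit, paralogues and RPS19BP1. Red points passed limma's adjusted p under 0.05 as higher, blue points as lower and grey points did not pass: 13 red and 3 blue at 1 d against -8 d, 4 blue at 9 d against -8 d, and 1 red and 15 blue at 9 d against 1 d.

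The members thus moved in both directions at 1 d. Their median change was 0.00 (0.0029), against -0.02 for all probe sets. The median absolute change of the 59 bright members was 0.06, against 0.14 for the 443 other bright probe sets. Of the small-subunit members 7 of 23 rose and 2 fell, and of the large-subunit members 3 of 37 rose and 0 fell, while 11 members of each subunit had an unadjusted p under 0.05. When arrays were centred on the probe sets above 10, 9 members rose and 6 fell. In the 8 cows with all 3 days 4 rose and 1 fell, and without the fourth CON 1 d array 8 rose.

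Gene groups with related roles are given for the same days, and their difference from the members was not tested. Of 22 other symbols listed for genes with known TOP messenger RNAs, mostly of translation, 17 were measured. Among these 6 fell and 0 rose, with a median of -0.11. RACK1 was listed under its older symbol GNB2L1 as well. Of all probe sets 11.6% fell and 11.5% rose, and of the other bright ones 31.15% fell and 21.9% rose. EIF3E and EIF3H, subunits of an initiation factor, fell by 0.59 (log2 fold change -0.59, SE 0.08, limma adjusted p = 2.15e-06) and 0.54 (-0.54, SE 0.07, adjusted p = 1.12e-06). BTF3, a part of the complex on nascent chains, and PABPC1, the poly(A) binding protein, fell by 0.26 and 0.21. EIF3E had 10.53 as the lowest and 11.56 as the highest value at 1 d, and 11.56 and 11.79 at -8 d, so the days only touched.

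FAU, which encodes a small-subunit protein fused to a ubiquitin-like one, and RPL3 did not pass at 1 d (0.07, adjusted p = 0.358, and 0.10, SE 0.05, adjusted p = 0.203). Other symbols that the rule left out did rise, RPL7L1 by 0.42 (SE 0.05, limma adjusted p = 2.64e-07) and RPS4Y1 by 0.15 (adjusted p = 0.0261). RPS4Y1 is the symbol of a Y-linked gene, yet its probe set read 12.67 to 13.17 on these arrays of cows. The symbol may thus not name the transcript that the probe set bound, which was not tested. RPL26L1 did not pass (0.16, adjusted p = 0.141). Of 60 ribosome biogenesis genes 49 were measured, and 9 rose and 4 fell with a median of 0.05 (all probe sets: 11.5% up, 11.6% down). Among them MRTO4, GAR1 and EMG1 rose by 0.44, 0.53 and 0.41, and RRP9 fell by 0.34 (log2 fold change -0.34). MRTO4 holds the place of RPLP0 on the maturing large subunit in yeast, GAR1 belongs to the RNPs that modify ribosomal RNA, and EMG1 and RRP9 work on the small subunit.

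Of 25 genes known to control ribosome production or translation 19 were measured, with 5 up and 5 down (all probe sets: 11.5% up, 11.6% down). LARP4, a poly(A)-binding protein that stabilises messenger RNAs, rose by 0.67, and DDIT4, an inhibitor of mTOR signalling, fell by 1.76 (log2 fold change -1.76). DDIT4 had 8.70 as the lowest, 9.395 as the median and 11.75 as the highest value at 1 d, against 10.58, 11.565 and 12.32 at -8 d.

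Other measures moved with the day as well. Of the 8 hepatocyte markers HP (log2 fold change 4.84), FGB (0.88) and APOA1 (0.80) rose at 1 d, while ALB (-0.08), TF (-0.10), TTR (-0.32) and APOB (-0.19) fell, and the median over the list was -0.03. All 3 of 5 neutrophil markers that were measured rose at 1 d, with a mean per array of 7.857 to 10.63 at 1 d, against 6.717 to 7.513 at -8 d, and 5 of 7 T and NK cell markers fell (5.609 to 6.10, against 5.637 to 6.196). Of the markers of other cells, 1 of 4 for Kupffer cells rose and 1 fell, and none of 3 for B cells and 5 for erythroid cells passed. The array's control for elongation factor 1 alpha gave a 3′ minus 5′ log2 difference of -1.07 ± 0.15 at 1 d (SD, n = 10), against -0.68 ± 0.12 at -8 d (SD, n = 10). Those for GAPDH (0.53 and 0.54), cyclophilin (1.19 and 1.23) and actin (1.61 and 1.60) were closer. The part of any of these in the changes of the members was not tested, and in biopsies fewer cells of a type and less RNA per cell cannot be told apart. Array values have no true zero, so no marker could be called absent.

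**Figure D2:**
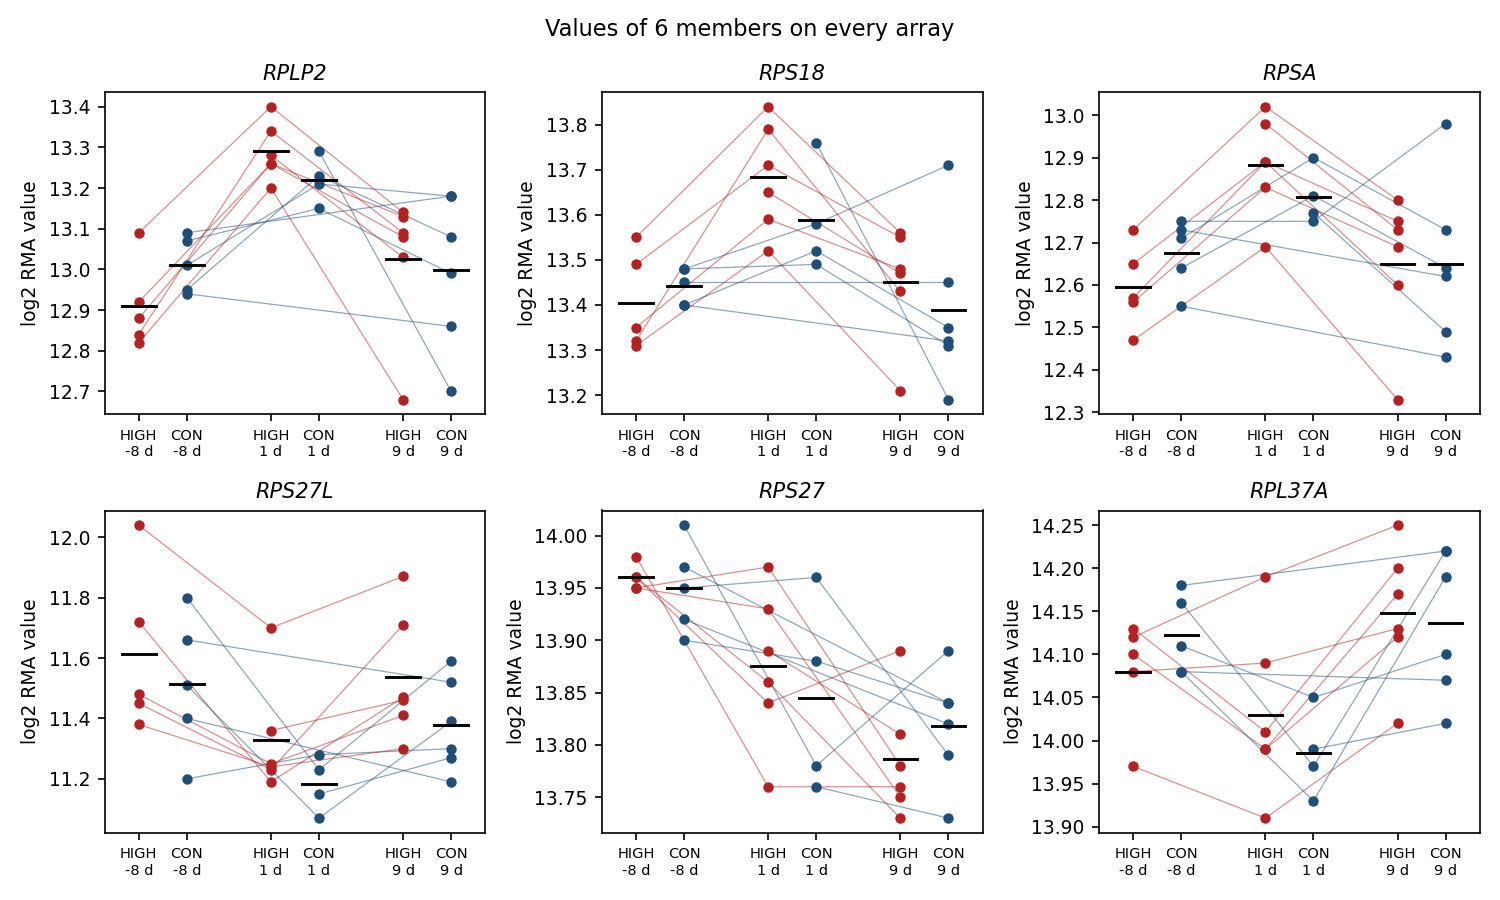
Log2 RMA value (vertical axis) of 6 members on every array, in HIGH and CON cows on each of the 3 days; red points are HIGH arrays, blue points CON arrays, black bars group means, and thin lines join arrays of one cow. RPLP2 at 1 d lay at 13.15 or above, over every -8 d array, and RPS27 at 9 d lay at 13.89 or below, under every -8 d array.

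Several probe sets were available for 16 members, with 24 beside the brightest ones, and these did not move alike. At 1 d against -8 d, 7 of the 24 fell by limma and 0 rose, and 20 of the 24 had a mean under 10. RPL15P fell in both of its other probe sets by 0.55 (log2 fold change -0.55, SE 0.06, adjusted p = 6.75e-08) and 0.22 (-0.22), against the rise of 0.20 in the brightest. RPL32, of the large subunit, did not pass in its brightest probe set, while the others fell by 0.73 (log2 fold change -0.73, SE 0.12, adjusted p = 2.28e-05) and 0.25 (-0.25). RPL21 (-0.43, SE 0.09, adjusted p = 0.000685), RPL24 (-0.23) and RPS3, a small-subunit protein that also cuts damaged DNA (-0.13), likewise fell only in dimmer probe sets. RPL15P was the only member whose probe sets passed in opposite directions, at 1 d against -8 d and at 9 d against 1 d. With the mean over all probe sets of a gene, its change at 1 d was -0.19.

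**Figure D3:**
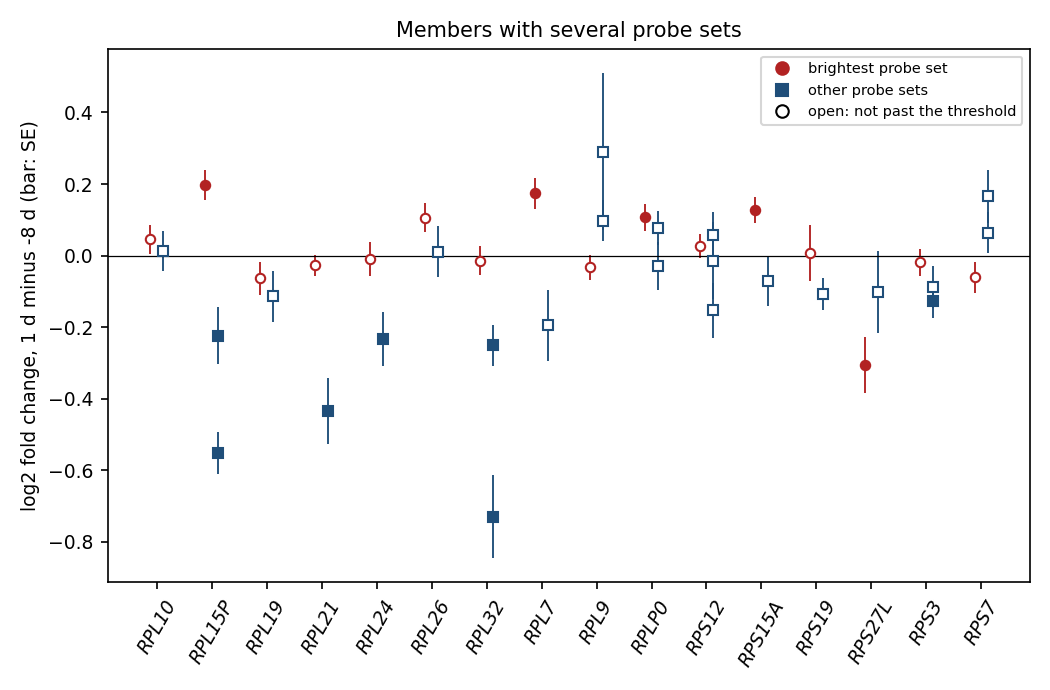
Log2 fold change at 1 d minus -8 d (vertical axis) with its standard error (bars) for the 16 members with several probe sets; red circles are the brightest probe set of each gene, blue squares the 24 others, and open symbols did not pass limma's adjusted p under 0.05. All 7 filled squares lie below 0, including both of RPL15P, whose filled circle lies above it.

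At 9 d the levels of 15 members fell and that of 1 rose against 1 d, and against -8 d 4 fell and 0 rose. The 2 comparisons with 1 d use the same 1 d arrays, so their values are set side by side here and not read as separate evidence. At 9 d against 1 d, 24.6% of the members changed by limma, 23.1% downward, against 13.1% of all probe sets (6.11% up, 6.99% down) and 46.7% of the other bright ones, of which 128 rose and 79 fell. The median change of the members was -0.06, with 52 of 65 negative, against 0.00 for all probe sets and 0.04 for the other bright ones.

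RPLP2 at 9 d had 12.68 as the lowest, 13.085 as the median and 13.14 as the highest value in HIGH cows, and 12.70, 13.035 and 13.18 in CON cows. In 2 CON arrays (13.18 each) it reached into the range of the 1 d arrays, and the other arrays lay below it. Its log2 fold change was -0.24 against 1 d (SE 0.05, limma adjusted p = 0.00122), lower in 10 of 10 cows, beside 0.30 for 1 d against -8 d. RPS18 (13.21 to 13.56 in HIGH cows, 13.19 to 13.71 in CON cows) had -0.22 beside 0.21, with 9 of 10 cows lower. RPSA (12.33 to 12.80 in HIGH cows, 12.43 to 12.98 in CON cows) had -0.19 beside 0.20, and RPS21 (12.5 to 12.88 in HIGH cows, 12.5 to 12.86 in CON cows) had -0.20 beside 0.16.

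In the large subunit RPL26, which lies near the exit tunnel, fell by 0.18 against 1 d (log2 fold change -0.18, SE 0.04, limma adjusted p = 0.00109), reading 13.35 to 13.68 at 9 d, against 13.59 to 13.92 at 1 d. RPL7, RPL12, RPL7A, RPL15P and RPL13A, the last known in human monocytes from the GAIT complex that silences translation, fell by 0.14 to 0.18, and the call of RPL7A was lost when any 1 of 5 arrays was left out. RPL13A read 13.52 to 13.71 at 9 d, against 13.68 to 13.89 at 1 d (-0.14, adjusted p = 0.0007). The falls in RPS15A, RPS15, RPS29, RPS10 and RPS26 were of 0.10 to 0.16, that of RPS10 being lost when any 1 of 2 arrays was left out. With the mean over the probe sets of each gene, RPL26 changed by -0.06, RPL7 by -0.04 and RPS15A by -0.004, and none of these passed. Each of these means joined the brightest probe set with a much dimmer one (means 13.59 and 6.17 for RPL26, 13.62 and 3.73 for RPL7, 13.51 and 7.32 for RPS15A). RPL37A, of the large subunit, was the member that rose, with 14.02 to 14.25 (median 14.15) at 9 d, against 13.91 to 14.19 (median 13.99) at 1 d (0.13, SE 0.03, limma adjusted p = 0.00443), higher in 10 of 10 cows. RPL37A at 9 d against -8 d did not pass. FAU fell by 0.23 (log2 fold change -0.23, SE 0.05, limma adjusted p = 0.00286), lower in 9 of 10 cows, and RPL3 did not pass (-0.14, adjusted p = 0.0713). RPL7L1 fell as well (-0.18, adjusted p = 0.00737), while RPS4Y1 (-0.11) and RPL26L1 (-0.02) did not pass. In the 8 cows with all 3 days 2 of the members fell at 9 d against 1 d.

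At 9 d against -8 d, 6.15% of the members passed by limma, all as falls, against 9.44% of all probe sets (5.18% up, 4.25% down) and 19.9% of the other bright ones. The median was -0.04 (all probe sets -0.02), with 51 of 65 negative. RPS27, a zinc finger protein of the small subunit, had 13.73 as the lowest, 13.77 as the median and 13.89 as the highest value in HIGH cows and 13.73, 13.83 and 13.89 in CON cows at 9 d. At -8 d it read 13.95, 13.95, 13.96, 13.96 and 13.98 in HIGH cows and 13.90, 13.92, 13.95, 13.97 and 14.01 in CON cows. The days did not overlap, and 10 of 10 cows were lower at 9 d (-0.15, SE 0.03, limma adjusted p = 0.00072). It had also fallen at 1 d (-0.09, SE 0.03, adjusted p = 0.0273), a call that was lost when any 1 of 3 arrays was left out.

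RPL22, an RNA-binding protein of the large subunit, read 12.82 to 13.03 at 9 d, against 12.92 to 13.13 at -8 d, and was lower in 10 of 10 cows (-0.14, SE 0.04, limma adjusted p = 0.0238), a call lost without 1 of the arrays. RPS13, of the small subunit, read 13.58 to 13.79 at 9 d, against 13.73 to 13.88 at -8 d (-0.10, adjusted p = 0.0162). RPL30, which in yeast also regulates its own splicing, read 13.02 to 13.24, against 13.15 to 13.27 (-0.10, adjusted p = 0.0313), and did not pass when any 1 of 8 arrays was left out. In the 8 cows with all 3 days 1 member fell, without the second CON -8 d array 2 fell and without the second CON 9 d array 8 fell. Against -8 d, the dim RPL37, RPS19 and RPL3L had changes of 0.11, -0.11 and 0.14 that did not pass.

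For the related groups at 9 d the difference from the members was again not tested. Against 1 d 6.11% of all probe sets rose and 6.99% fell (28.9% and 17.8% of the other bright ones). Against -8 d 5.18% rose and 4.25% fell (9.93% each way among the other bright ones). Of the 17 other TOP genes 6 rose and 2 fell against 1 d (median 0.08), with EIF3E at 0.45, EIF3H at 0.34 and TPT1 at 0.12, and 0 rose and 2 (EEF1D and EIF3K) fell against -8 d. Of the 49 biogenesis genes 1 rose and 2 fell against 1 d, and 2 rose and 1 fell against -8 d. Of the 19 control genes 2 rose and 2 fell against 1 d, where DDIT4 (1.22) and MYC (1.25), a transcription factor that drives ribosome production, rose and LARP4 (-0.26) and RPS6KB2 (-0.25) fell. Against -8 d LARP4 (0.40) rose and SESN1 (-0.23) fell. Among the markers, HBB and HBA of erythroid cells fell at 9 d against -8 d (log2 fold changes -1.59 and -0.23) and against 1 d (-0.96 and -0.26), with a mean of the 5 erythroid markers per array of 4.042 to 4.492 at 9 d, 4.128 to 4.812 at 1 d and 4.102 to 5.104 at -8 d. Of the T and NK cell markers CD2 fell against -8 d (-0.21) and CD5 rose against 1 d (0.22). Of the hepatocyte markers HP (2.50) and APOA1 (0.97) rose and TTR (-0.20) fell against -8 d, and against 1 d ALB (0.08) and TTR (0.12) rose and HP (-2.33) and FGB (-1.19) fell. The 3 neutrophil markers fell at 9 d against 1 d, with a mean per array of 6.953 to 8.36 at 9 d. The elongation factor 1 alpha control gave -0.81 ± 0.13 (SD, n = 12). That of actin gave 1.78 ± 0.70 at 9 d (SD, n = 12), where the sixth CON array read 3.87 and the next highest 2.19. Without that array 4 members fell against -8 d and 15 against 1 d. Apart from that array, the part of these measures in the falls of the members was not tested.

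No member passed for diet on any day, under any of the alternatives run that could test it. At -8 d, in HIGH against CON cows, 0 of 65 members passed by limma, as did 0% of all probe sets, and 0 had an unadjusted p under 0.05. At 1 d 0 members passed, against 0.00416% of all probe sets, and 11 (16.9%) had an unadjusted p under 0.05, all higher in HIGH, against 8.38% of all and 14.9% of the other bright probe sets. At 9 d again 0 members and 0% of all probe sets passed, and 0 members had an unadjusted p under 0.05.

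The members leaned one way together on each day. At -8 d 53 of 65 were lower in HIGH (median -0.04, all probe sets 0.00), at 1 d 59 were higher (median 0.08, all probe sets 0.00, other bright ones -0.02) and at 9 d 46 were higher (median 0.02, all probe sets 0.01). Members on one array share that array, so these counts are not counts of independent results. The deviations of the 59 bright members from their group means correlated with each other across the 32 arrays, with a median Pearson r of 0.55 over 1711 pairs, 99.2% of them positive, against 0.01 for 97903 pairs of the other bright probe sets (50.7% positive). The pairs share arrays, normalisation and a narrow range of brightness.

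The smallest p at 1 d were those of RPS15A, RPL22 and RPS21. RPS15A read 13.61 to 13.76 (median 13.695) in HIGH cows and 13.47, 13.49, 13.50 and 13.64 in CON cows. A single CON array reached into the HIGH range, and the difference was 0.16 (SE 0.05, unadjusted p = 0.00567, limma adjusted p = 0.44). RPL22 read 12.77 to 13.21 in HIGH cows and 12.74, 12.87, 12.87 and 12.98 in CON cows (0.18, limma adjusted p = 0.456). RPS21 read 12.80 to 13.16 (median 12.98) in HIGH cows and 12.70, 12.75, 12.75 and 12.90 in CON cows (0.21, SE 0.07, limma adjusted p = 0.462). The members with the smallest p at -8 d were RPL10 (-0.10), RPL10A (-0.11) and RPL26 (-0.08), and at 9 d RPL13 (0.13), RPL3L (-0.25) and RPS27L (0.16), and none passed.

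**Figure D4:**
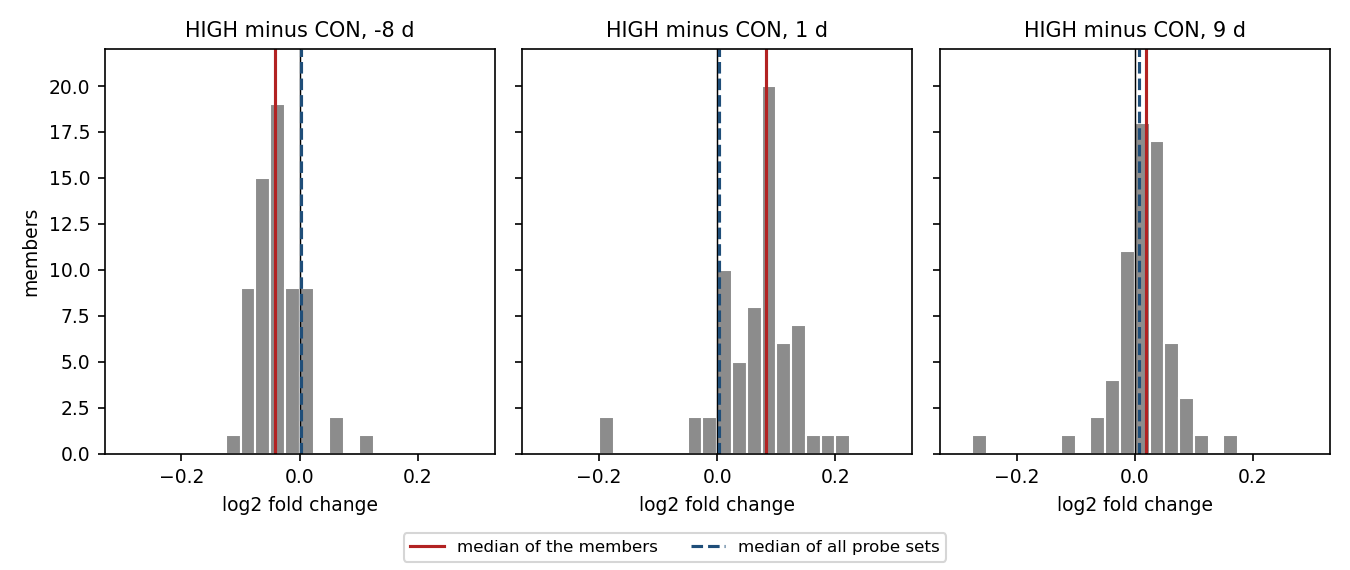
Histograms of the HIGH minus CON log2 difference of the 65 members (horizontal axis; the vertical axis counts members), one panel for each day from -8 d to 9 d; the red line is the median of the members and the dashed blue line that of all probe sets. The members' median lay at -0.04, 0.08 and 0.02, and no member passed on any day.

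The mean of the 59 bright members on each array summarises these same values and is no separate evidence of the lean. It was 13.22 ± 0.03 in HIGH and 13.27 ± 0.04 in CON cows at -8 d (SD, n = 5 each). At 1 d it was 13.30 ± 0.08 in HIGH (n = 6) and 13.23 ± 0.04 in CON cows (n = 4), and at 9 d 13.21 ± 0.06 in HIGH and 13.19 ± 0.10 in CON cows (n = 6 each). The groups overlapped on every day. Between -8 d and 1 d the mean was higher at 1 d in 4 of 5 HIGH cows and in 0 of 3 CON cows. Between 1 d and 9 d it was lower at 9 d in 6 of 6 HIGH cows and in 2 of 4 CON cows. The median of all probe sets above 10 was 11.07 to 11.14 in HIGH and 11.13 to 11.16 in CON arrays at -8 d. With arrays centred on those probe sets, the members' median HIGH minus CON difference was -0.01 at -8 d (42 of 65 lower), 0.07 at 1 d and 0.01 at 9 d (0.015).

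**Figure D5:**
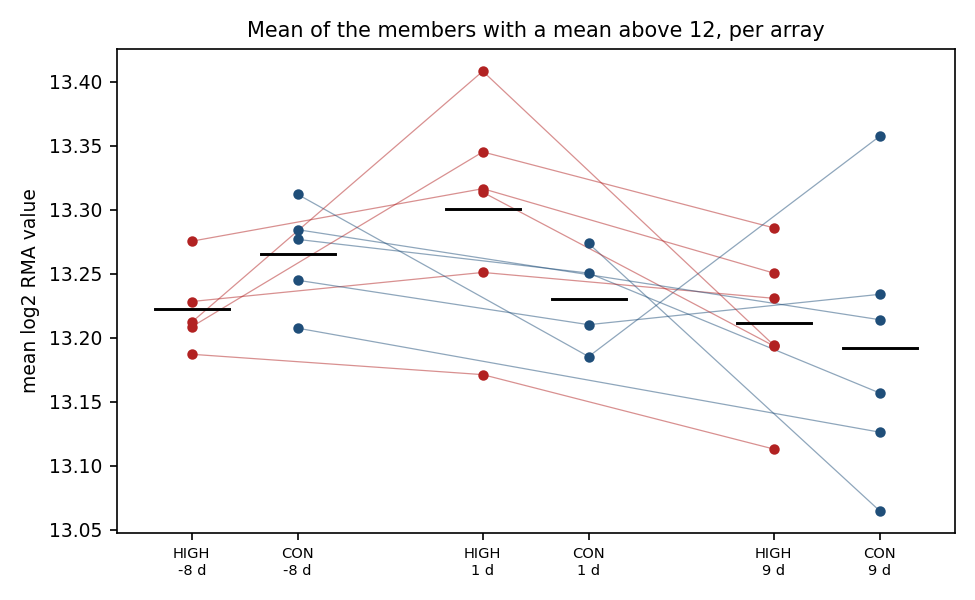
Mean log2 RMA value of the 59 members with a mean above 12 (vertical axis) on each array, by diet and day; red points are HIGH arrays, blue points CON arrays, black bars group means, and lines join arrays of one cow. HIGH arrays at 1 d ran from 13.17 to 13.41 and CON arrays from 13.19 to 13.27.

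Whether the change over time differed between the diets was tested as an interaction. No member passed for any of the 3 pairs of days, and 0% of all probe sets did. For 1 d against -8 d 61 of 65 interactions were positive (median 0.12, all probe sets 0.00, other bright ones -0.03). Of the members 10 had an unadjusted p under 0.05 (15.4%), against 7.17% of all probe sets. Among the 443 other bright probe sets the share was 15.35%, near that of the members. Within HIGH cows 48 of 65 members were higher at 1 d than at -8 d (median 0.05), and within CON cows 22 were (median -0.04). With arrays centred on the probe sets above 10 the HIGH median was 0.02, with 35 members higher, and the median interaction 0.08. The leading ones were RPS13 (0.17, limma adjusted p = 0.579), RPL26 (0.22, limma adjusted p = 0.579) and RPS21 (0.25, limma adjusted p = 0.617). For 9 d against -8 d 58 were positive (median 0.06) with 0 at an unadjusted p under 0.05, and for 9 d against 1 d 52 were negative (median -0.05) with 1, that of RPS21 (-0.20, limma adjusted p = 0.712). None of the genes in the TOP, biogenesis and control lists passed for diet or for an interaction.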

How the data were processed

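The authors deposited log2 values per probe set made with Affymetrix Expression Console 1.1 and RMA, per the submitters' processing notes; the settings are not given in the sources used here. RMA forces one distribution on the arrays; a change is therefore relative to most other probe sets, and very bright probe sets can be compressed towards the top of the scale (values ran from 2.35 to 15.0). Precision is limited by how many arrays there were.

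The table held 24128 probe sets; without the 112 controls, 24016 were tested, with no filter on level. The array annotation gave 1 symbol to 13292 probe sets, several to 86 and none to 10638. A linear model of the 6 diet-by-day groups was fitted with limma 3.58.1 in R 4.3.3, with a random block for cow (consensus correlation 0.138; 26 residual degrees of freedom) and a mean-variance trend. P-values are two-sided and Benjamini-Hochberg adjusted per contrast, with 0.05 as the threshold. The cow numbers in the labels give the pairing; arrays sharing only a title number correlated with a mean r of -0.01.

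The members, gene lists and markers were chosen with earlier results of these data known. Values were given for the 4 members that rose most and the 4 that fell most among those past the threshold per contrast (the 3 with the smallest p where fewer than 2 passed), the 3 brightest and 3 dimmest, a short list of well-known members, members whose probe sets passed in opposite directions, and the 4 list genes with the smallest p per time contrast. RPL7, RPL13A, RPL22 and other members shown with array values beyond this rule were chosen after their values were seen. The script was tested on simulated data. Alternatives covered the block, the variance model, the centring of arrays, a filter on dim probe sets, the mean over probe sets, and each array left out.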

Additional observations from a re-analysis of the deposited data

Results flagged for a closer look

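In 10 of 168 sets of arrays of one diet and day examined for the named genes, 1 array stood apart from the rest of its group by Dixon's test at the 95% level, and chance alone gives about 1 in 20. In HIGH cows these were RPL3L at -8 d (5.49), RPL21 (13.65), RPS27L (11.7) and RPS3A (13.73) at 1 d, and RPL10A (12.35), RPLP2 (12.68) and RPS18 (13.21) at 9 d. In CON cows they were RPL19 (12.49) and RPL26 (13.7) at -8 d and RPL13 (13.04) at 9 d. The sets share arrays on which the bright members varied together. Their count can therefore not be read against a rate for independent sets.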

How the results depend on the processing

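The 36 calls of members between days kept their direction and passed in 27 to 36 of 36 cases under each alternative except the fit of the 8 cows with all 3 days, where 9 passed and 27 did not. With those cows 4 members rose and 1 fell at 1 d against -8 d, 1 fell at 9 d against -8 d and 2 fell at 9 d against 1 d; the TOP genes gave 0 calls at 9 d against -8 d and 5 at 9 d against 1 d, the biogenesis genes 1 at 9 d against -8 d, and the control genes 6 at 1 d against -8 d and 1 at 9 d against -8 d. That fit uses fewer arrays. With cow as a fixed replicate block, 1 member fell at 1 d and 2 fell at 9 d against -8 d, 2 rose at 9 d against 1 d, and 1 TOP gene was called at 9 d against -8 d; diet lies between cows and could not be tested there. With no replicate block, 1 TOP gene at 9 d against -8 d and 1 biogenesis gene at 9 d against 1 d were called. With the title number as a random replicate block and with robust variances, 1 TOP gene was called at 9 d against -8 d. Centring on the 1825 probe sets above 10 gave 6 falling members at 1 d and 4 TOP calls at 9 d against -8 d, and a second quantile normalisation 4 such TOP calls. The 12006 brighter probe sets gave 6 falling members at 1 d, 2 rising ones at 9 d against 1 d, 4 TOP and 5 biogenesis calls at 9 d against -8 d, and 7 biogenesis calls at 9 d against 1 d. With the mean over all probe sets 5 members fell at 1 d and 4 rose at 9 d against 1 d, and 3 values reversed: RPL15P at 1 d (-0.19) and at 9 d against 1 d (0.15), and RPL7 at 1 d (-0.010). Leaving out 1 array gave, at 1 d against -8 d, 8 to 16 rises and 1 to 5 falls (8 without the fourth CON 1 d array; 1 without the second CON -8 d or CON 1 d array; 5 without the fourth or the sixth HIGH 1 d array). At 9 d against -8 d it gave 0 to 0 rises and 2 to 8 falls, and at 9 d against 1 d 1 to 2 rises (2 without the fifth HIGH 1 d array) and 12 to 16 falls. For diet and interactions it gave 0 to 0 calls on every day. At 1 d against -8 d, 9 d against -8 d and 9 d against 1 d, TOP calls were 6 to 8, 0 to 4 and 6 to 9, biogenesis calls 10 to 14, 1 to 5 and 1 to 5, and control calls 6 to 10, 1 to 3 and 3 to 4. The causes were not tested.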
